A study of Mus musculus with 12 samples.

Results

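The genes described here are 10 mouse genes of the antioxidant response: the regulators Nfe2l2, Keap1 and Bach1, the enzymes Hmox1 and Nqo1, the thioredoxin and peroxiredoxin genes Srxn1, Txnrd1, Txn1 and Prdx1, and Sod2. They were taken by exact gene name from the 41325 genes of the deposited tables, and all 10 were found. RNA was sequenced from IMG cells, which are immortalised microglia of the mouse; microglia are the macrophages that live in the brain. The 12 libraries fall into 3 groups of 4, all from wild-type C57Bl6/J cells at the same passage: cells given oAb for 8 h, cells given fAb for 8 h, and cells given a scramble control for 8 h. The names oAb and fAb, for amyloid-beta preparations, are kept as the labels spell them, because the design text sets the word fibrillar beside oAb and the word oligomeric beside fAb. All cells are 1 line, and no label says whether the 4 libraries of a group came from separate cultures, so the p-values measure the spread between these libraries, which may be technical.

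NRF2, the protein of Nfe2l2, is a transcription factor that KEAP1 holds in the cytoplasm and hands to a CUL3 ubiquitin ligase for degradation. Oxidants and electrophiles modify cysteines of KEAP1, NRF2 then accumulates, pairs with a small MAF protein and binds antioxidant response elements, while BACH1, a repressor that heme inactivates, competes for related sites. Heme oxygenase 1 cleaves heme to biliverdin, carbon monoxide and iron, and the thioredoxin system passes electrons from NADPH through thioredoxin reductase and thioredoxin to the peroxiredoxins that remove hydrogen peroxide. In microglia the same enzymes stand beside the NADPH oxidase, which makes superoxide.

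The stretches of DNA just before the gene starts are shown because antioxidant response elements lie in such stretches in several genes of this kind. RefSeq (GRCm38.p6) gave 11 windows of 250 bases before a start for 9 of the 10 genes. Hmox1 had no window in the source used here and was not searched. Each window was searched on both strands for TGACNNNGC, the core of the antioxidant response element, and for TGANTCA, the AP-1 type site that NRF2 and BACH1 elements can contain; the motifs can overlap. Of 32851 such windows of mouse genes, 10.2% held TGACNNNGC and 6.75% held TGANTCA. The 4 windows of members in which a match was found follow, 5′ to 3′ on the gene's strand, with the matched letters in capitals.
Srxn1 (chr2:152105274-152105523, plus strand): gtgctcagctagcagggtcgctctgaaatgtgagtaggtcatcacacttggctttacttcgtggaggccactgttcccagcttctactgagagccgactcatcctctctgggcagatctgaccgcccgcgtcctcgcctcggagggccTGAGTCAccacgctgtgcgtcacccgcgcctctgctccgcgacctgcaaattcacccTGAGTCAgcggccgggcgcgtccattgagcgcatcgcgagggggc
Prdx1 (chr4:116685349-116685598, plus strand): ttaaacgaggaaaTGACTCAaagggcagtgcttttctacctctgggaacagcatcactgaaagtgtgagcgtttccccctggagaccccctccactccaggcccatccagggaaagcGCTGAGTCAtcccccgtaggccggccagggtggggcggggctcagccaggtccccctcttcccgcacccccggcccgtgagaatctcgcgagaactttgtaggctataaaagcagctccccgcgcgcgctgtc
Txnrd1, 1 of 3 starts (chr10:82858956-82859205, plus strand): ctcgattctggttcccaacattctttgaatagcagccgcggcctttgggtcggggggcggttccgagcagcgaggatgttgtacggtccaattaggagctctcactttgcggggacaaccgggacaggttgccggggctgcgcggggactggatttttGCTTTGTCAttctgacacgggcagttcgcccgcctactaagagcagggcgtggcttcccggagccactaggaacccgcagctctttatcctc
Nfe2l2 (chr2:75704664-75704913, minus strand): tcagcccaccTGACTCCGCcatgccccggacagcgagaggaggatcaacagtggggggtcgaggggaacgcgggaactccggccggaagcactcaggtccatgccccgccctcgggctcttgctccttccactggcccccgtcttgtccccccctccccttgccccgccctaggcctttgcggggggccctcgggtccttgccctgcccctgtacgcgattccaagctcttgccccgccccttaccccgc
The Srxn1 window held TGANTCA 102 to 96 and 45 to 39 bases before the start. In the Prdx1 window TGANTCA lay 237 to 231 and 131 to 125 bases before the start, and the nearer match lay inside a TGACNNNGC match on the other strand at 133 to 125. The Txnrd1 window held TGACNNNGC on the other strand at 92 to 84, and that of Nfe2l2 held it at 240 to 232. Neither motif was matched in the windows of Keap1, Bach1, Nqo1, Txn1 and Sod2 or in the other 2 of Txnrd1, which says only that these letters are not in these windows.

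The libraries held 13638721 to 18124419 counts in 13449 to 13948 detected genes. Of 12 listed microglia and macrophage markers, 11 had a mean of at least 1 TPM (transcript abundance scaled to gene length and library size) in oAb and in fAb cells and 12 in scramble cells, with summed levels of 7386 to 8410 TPM in oAb cells, 7685 to 8056 TPM in fAb cells and 9069 to 9861 TPM in scramble cells. The neuronal markers Rbfox3, Snap25 and Syt1, the oligodendrocyte markers Mog, Olig2 and Sox10, and the astrocyte marker Aqp4 were at 0 in every library. The summed level of the 6 oligodendrocyte markers was 14 to 15.3 TPM in oAb cells, 15.6 to 16.7 TPM in fAb cells and 26.4 to 48.2 TPM in scramble cells, with 1 marker at a mean of at least 1 TPM in each group. That of the 6 neuronal markers was 1.90 to 2.31 TPM in oAb cells, 1.85 to 2.28 TPM in fAb cells and 0.139 to 0.716 TPM in scramble cells. A mean of at least 1 TPM was reached by 1 neuronal marker in oAb and in fAb cells and by 0 in scramble cells. The 6 astrocyte markers summed to 0.354 to 0.695, 0.492 to 0.697 and 0.244 to 0.327 TPM in the same order of groups. For 5 endothelial markers the sums were 0.385 to 0.527, 0.384 to 0.620 and 0.031 to 0.168 TPM. For 5 fibroblast and pericyte markers they were 1.24 to 1.88, 1.03 to 1.60 and 0.097 to 0.410 TPM. Of these 5, 1 had a mean of at least 1 TPM in oAb and in fAb cells and 0 did in scramble cells. The part of these shifts in the results was not tested. Scramble library 3 stood apart: its log2 CPM correlated with those of the other 3 controls at 0.944 to 0.965, and ribosomal protein genes took 10.6% of its counts, against 6.37 to 6.73% in scramble libraries 1, 2 and 4. These genes took 4.73 to 5.30% of counts in treated libraries, and mitochondrially encoded genes took 2.73 to 3.37% in treated libraries and 4.18 to 4.94% in controls, so both shares also move with treatment, and their part in the changes below was not tested. A second difference lay in how counts were divided between Timm23 and its near-identical copy Gm10273. Timm23 held 94.6 to 98.3% of the pair's counts in oAb libraries 1 and 2 and scramble libraries 2, 3 and 4, called the Timm23 set here, and 17.5 to 38.5% in the other 7 libraries, called the Gm10273 set, which holds every fAb library and only 1 control. What this division marks is not given in the labels. In fAb against scramble only scramble library 1 shares the set of the treated libraries. With the library set as a term in the fit, each fAb value against scramble therefore rests on that 1 control. Tests within the Gm10273 set have it as the only control and assume that it varies like the other groups. Calls of the members that change with scramble library 3 or with the set division are given with and without them.

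Of the 10 genes, 7 were higher after either amyloid preparation, and none was lower. Hmox1 rose 10.6-fold in oAb cells and 10.3-fold in fAb cells, Sod2 8.45-fold and 8.29-fold, Srxn1 6.90-fold and 7.18-fold, Txnrd1 3.64-fold and 3.95-fold, and Prdx1 2.46-fold and 2.88-fold, each against scramble cells. Nqo1 and Nfe2l2 rose less, and Keap1, Bach1 and Txn1 did not pass the test in either comparison. All 10 passed the filter on low counts. The test was edgeR's quasi-likelihood F test across all genes, two-sided, adjusted by Benjamini-Hochberg, with calls at 0.05, and the same 7 genes passed for oAb and for fAb, which share the scramble libraries. As background, 52.2% of 11033 tested genes passed for oAb (25.2% higher, 27.0% lower) and 56.3% of 11074 for fAb (27.6% higher, 28.8% lower). The treated libraries of the same 7 genes all lay above the controls in either comparison, as did those of 26.2% of tested genes for oAb and 27.4% for fAb. The median log2 fold change of the 10 genes was 1.11 for oAb and 1.3 for fAb, beside -0.07 and -0.04 over all tested genes. In bulk RNA a change in the share of cells that express a gene and a change in RNA per cell cannot be told apart.

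**Figure D1:**
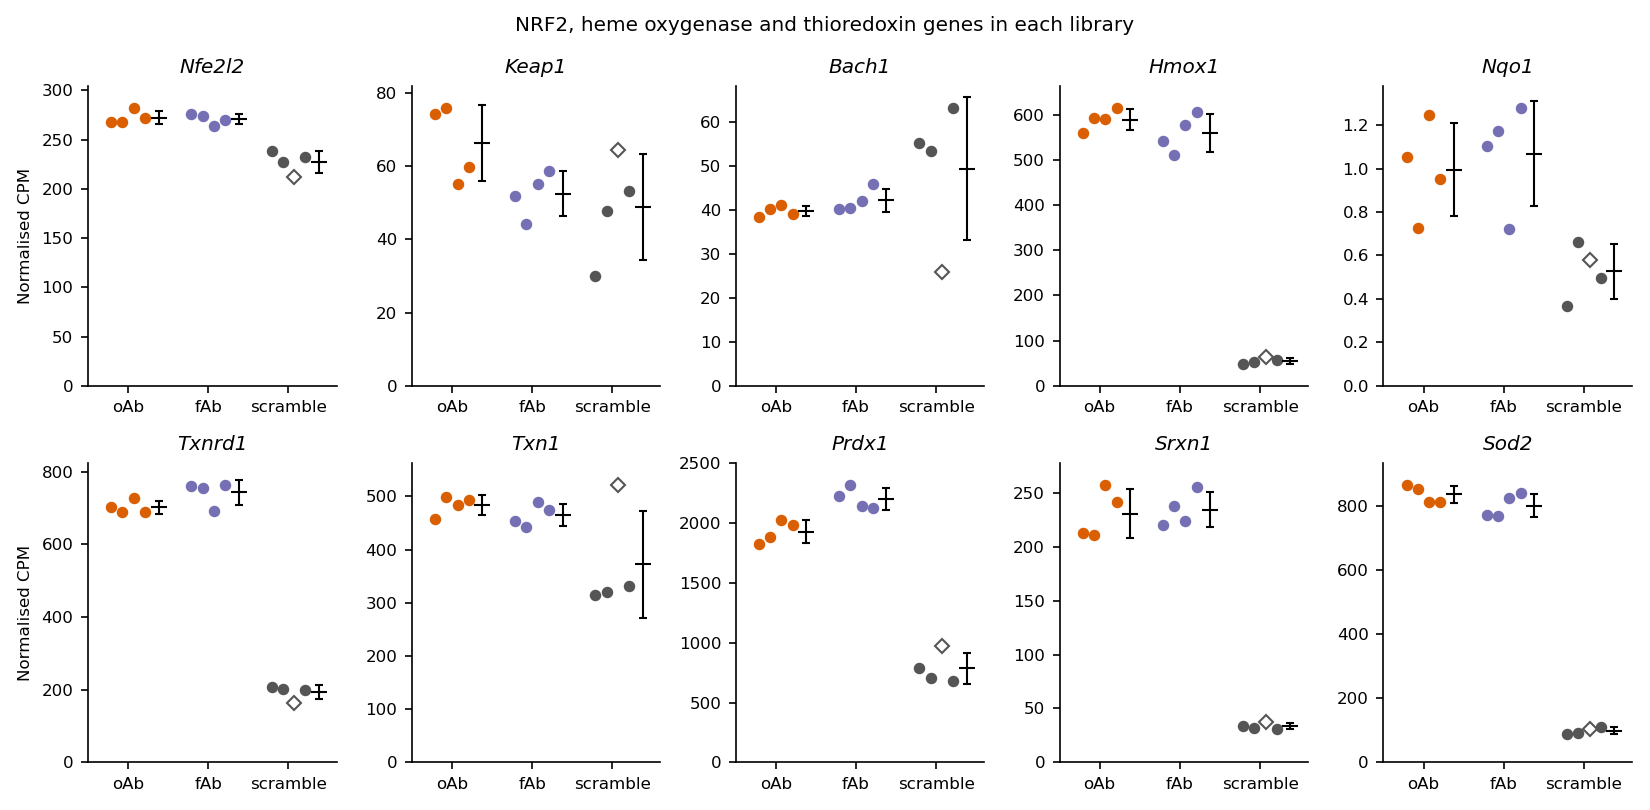
Normalised CPM (vertical axes, from 0) of each of the 10 genes in the 4 oAb, 4 fAb and 4 scramble libraries, 1 point per library, with scramble library 3 as an open diamond. The treated libraries of Hmox1, Srxn1, Txnrd1, Prdx1 and Sod2 lie far above all controls, while Keap1, Bach1 and Txn1 overlap between groups.

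**Figure D2:**
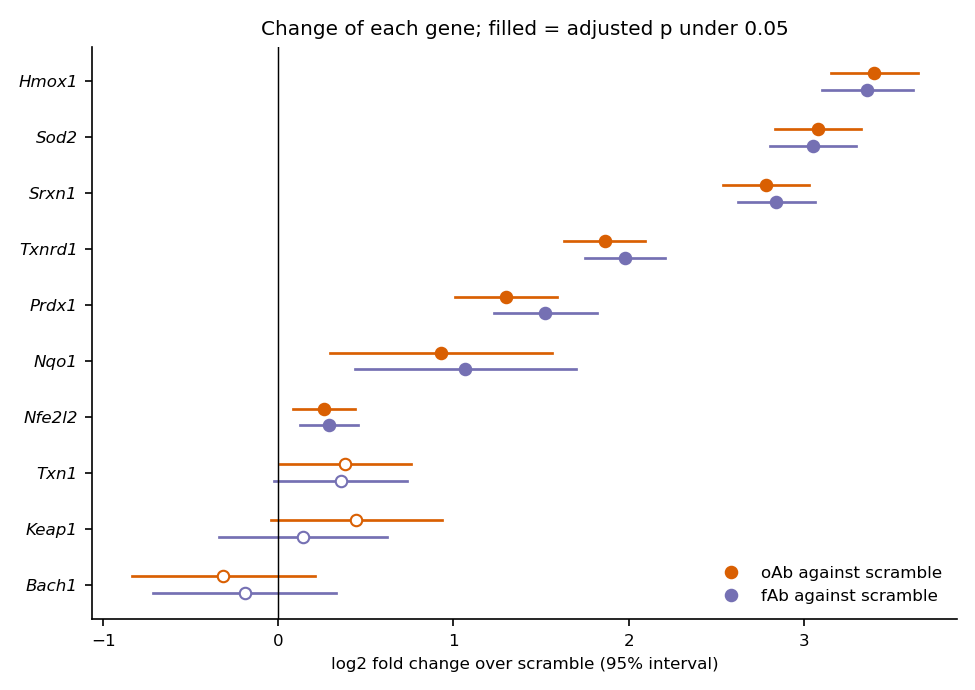
Log2 fold changes of the 10 genes with their 95% intervals for oAb against scramble and fAb against scramble. Hmox1 reaches 3.40 and 3.36, and the intervals of Keap1 and Bach1 include 0 in both comparisons.

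Among the regulators, Nfe2l2 itself changed little. It had 268, 268, 282 and 272 normalised CPM (counts scaled to library size, with TMM over the 12 libraries) in oAb cells, 276, 274, 264 and 270 CPM in fAb cells, and 239, 228, 212 and 232 CPM in scramble cells. Every treated library was above every control, but by a small margin. The log2 fold change was 0.26 ± 0.08 (SE; edgeR adjusted p = 0.0193) for oAb and 0.29 ± 0.07 (adjusted p = 0.00768) for fAb. This call depends on the scaling: with upper quartile scaling, which moved the median of all genes to -0.24 for oAb and -0.23 for fAb, the changes were 0.09 (adjusted p = 0.342) and 0.10 (adjusted p = 0.255). It was also lost for oAb within the Timm23 set, at 0.26 (adjusted p = 0.148), without oAb library 3 (adjusted p = 0.0573), without oAb library 4 (adjusted p = 0.0504), without scramble library 2 (adjusted p = 0.0519) and with the replicate number as a block (adjusted p = 0.0652). For fAb it was lost with the library set as a term, at 0.24 (adjusted p = 0.166).

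Keap1 encodes the adaptor that marks NRF2 for degradation. Its levels were 74.4, 75.9, 55.2 and 59.8 CPM in oAb cells, 51.8, 44.3, 55.1 and 58.8 CPM in fAb cells, and 30.04, 47.7, 64.5 and 53.1 CPM in scramble cells. The groups overlapped, and within oAb cells and within scramble cells the libraries of the Timm23 set were the higher ones. Across all libraries the log2 fold change was 0.45 ± 0.22 (adjusted p = 0.115) for oAb and 0.14 ± 0.21 (adjusted p = 0.598) for fAb. With the library set as a term it was 0.62 (edgeR adjusted p = 0.00637) for oAb and 0.86 (adjusted p = 0.0148) for fAb. Within the Gm10273 set, where scramble library 1 is the only control, it was 0.98 for oAb and 0.87 for fAb. Both of these fAb values rest on scramble library 1, so they are not separate results. Without scramble library 3 the log2 fold change was 0.61 (adjusted p = 0.0396) for oAb and 0.31 (adjusted p = 0.179) for fAb. Exons of the antisense gene Gm16754 cover 10.9% of those of Keap1, and the authors' use of strand in counting was not given in the sources used here.

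Bach1, the repressor of Hmox1 and other NRF2 targets, had 38.5, 40.1, 41.1 and 39.04 CPM in oAb cells, 40.3, 40.5, 41.98 and 45.9 CPM in fAb cells, and 55.2, 53.5, 25.8 and 63.1 CPM in scramble cells. Scramble library 3 held the 25.8 CPM, and the other 3 controls were above all 8 treated libraries. Over all libraries the log2 fold change was -0.31 ± 0.23 (adjusted p = 0.284) for oAb and -0.19 ± 0.23 (adjusted p = 0.506) for fAb. Without scramble library 3 it was -0.53 (adjusted p = 0.000115) and -0.40 (adjusted p = 0.00119), so 1 library decides this call. The Gm10273 set also leaves out scramble library 3 and keeps scramble library 1 as the only control. Within it the log2 fold change was -0.42 for oAb and -0.33 for fAb.

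Hmox1, the inducible heme oxygenase, had the largest fold change of the 10 genes. It had 558, 592, 590 and 614 CPM in oAb cells, 541, 512, 577 and 606 CPM in fAb cells, and 49.0, 52.9, 63.6 and 57.6 CPM in scramble cells. No treated library came near a control, and the means were 589 ± 23.0 CPM in oAb cells, 559 ± 41.3 CPM in fAb cells and 55.8 ± 6.31 CPM in scramble cells (SD, n = 4 each). The log2 fold change was 3.40 ± 0.11 (adjusted p = 1.43e-08) for oAb and 3.36 ± 0.11 (adjusted p = 2.27e-08) for fAb. Hmox2, which encodes the constitutive heme oxygenase, rose by 0.55 (adjusted p = 0.0184) for oAb and 0.53 (adjusted p = 0.0171) for fAb, with groups that overlap. The oAb call of Hmox2 was lost without oAb library 3 or 4 or scramble library 2 or 4 (adjusted p = 0.0538 to 0.0546), the fAb call without scramble library 2 (adjusted p = 0.0531), and both with upper quartile scaling (adjusted p = 0.0807 and 0.0908), and 40.2% of its exons are covered on the other strand by Cdip1. Within a library, TPM of Hmox1 over TPM of Hmox2 was 6.40 to 7.70 in oAb cells, 6.47 to 7.71 in fAb cells and 0.827 to 1.13 in scramble cells. Both transcripts were thus at similar levels in scramble cells, whereas Hmox1 was the more abundant one in treated cells.

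Nqo1, a quinone reductase often used as a readout of NRF2, was barely expressed. Its raw counts were 16, 10, 19 and 15 in oAb cells, 19, 21, 11 and 21 in fAb cells, and 7, 11, 8 and 8 in scramble cells. Raw counts of the groups met at 10 and 11, but after scaling for depth every treated library was above every control. The log2 fold change was 0.93 ± 0.28 (adjusted p = 0.0197) for oAb and 1.07 ± 0.28 (adjusted p = 0.00925) for fAb. For oAb the call was lost within the Timm23 set, at 0.63 (adjusted p = 0.241), without oAb library 3 (adjusted p = 0.0636), without scramble library 1 (adjusted p = 0.0522) and with the replicate number as a block, at 0.92 (adjusted p = 0.0642). At this depth a difference of a few counts per library sets the value. In the authors' deposited table neither Nqo1 (adjusted p 0.233 for oAb and 0.0664 for fAb) nor Nfe2l2 (0.355 and 0.261) passed 0.05, whereas Hmox1, Srxn1, Txnrd1, Prdx1 and Sod2 did. Of all genes with an adjusted p there, 4926 of 16758 passed for oAb and 5597 of 16792 for fAb.

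Srxn1 encodes sulfiredoxin, which reduces peroxiredoxins that peroxide has over-oxidised. It had 212, 211, 257 and 242 CPM in oAb cells, 220, 238, 224 and 256 CPM in fAb cells, and 33.6, 31.7, 37.5 and 31.3 CPM in scramble cells. The lowest treated library was several times above the highest control. The log2 fold change was 2.79 ± 0.11 (adjusted p = 4.89e-08) for oAb and 2.84 ± 0.10 (adjusted p = 2.36e-08) for fAb.

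Txnrd1, the cytosolic thioredoxin reductase that draws on NADPH, had 703, 688, 727 and 689 CPM in oAb cells, 761, 755, 691 and 764 CPM in fAb cells, and 208, 202, 163 and 200 CPM in scramble cells. The groups did not overlap, and its log2 fold change was 1.86 ± 0.10 (adjusted p = 4.80e-07) for oAb and 1.98 ± 0.10 (adjusted p = 3.17e-07) for fAb. Prdx1, the abundant cytosolic peroxiredoxin, had 1824, 1880, 2030 and 1987 CPM in oAb cells, 2230, 2321, 2140 and 2124 CPM in fAb cells, and 787, 707, 971 and 678 CPM in scramble cells. All 8 treated libraries lay above the 4 controls, of which library 3 was the highest. Its log2 fold change was 1.3 ± 0.13 (adjusted p = 2.83e-05) for oAb and 1.52 ± 0.13 (adjusted p = 1.10e-05) for fAb. Of the 50-base words of Prdx1 transcripts, 8.29% also lie in other annotated genes, so part of its counts is uncertain.

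Txn1, which encodes thioredoxin, the substrate of Txnrd1, did not pass the test. It had 458, 500, 484 and 493 CPM in oAb cells, 453, 443, 489 and 474 CPM in fAb cells, and 315, 320, 522 and 332 CPM in scramble cells. Scramble library 3, at 522 CPM, was above every treated library, and the other 3 controls were below all of them. The log2 fold change was 0.38 ± 0.17 (adjusted p = 0.0800) for oAb and 0.36 ± 0.17 (adjusted p = 0.0992) for fAb. Without scramble library 3 it was 0.59 (adjusted p = 1.27e-05) for oAb and 0.57 (adjusted p = 6.08e-06) for fAb. With that library kept, Txn1 also passed for oAb in DESeq2, at 0.41 (adjusted p = 0.0457), and in the fit of all 12 libraries, at 0.38 (adjusted p = 0.0346), and for fAb with the replicate number as a block, at 0.39 (adjusted p = 0.0474). Within the Gm10273 set, which leaves it out, the change was 0.67 (adjusted p = 3.27e-06) for oAb and 0.63 (adjusted p = 0.000133) for fAb. The higher share of ribosomal protein counts in scramble library 3 moved with these values, and its part in them was not tested. TPM of Txnrd1 over TPM of Txn1 was 0.204 to 0.228 in oAb cells, 0.209 to 0.253 in fAb cells and 0.0465 to 0.0979 in scramble cells, lowest in library 3. TPM of Srxn1 over TPM of Prdx1 was 0.121 to 0.137 in oAb cells, 0.107 to 0.130 in fAb cells and 0.0416 to 0.0498 in scramble cells. In both pairs the ratio was higher in every treated library than in every control.

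Sod2, the manganese superoxide dismutase of mitochondria, is induced by inflammatory signals as well as by oxidants in many cell types. It had 866, 853, 812 and 812 CPM in oAb cells, 771, 768, 824 and 840 CPM in fAb cells, and 88.0, 91.9, 106 and 111 CPM in scramble cells. The groups were far apart, and the log2 fold change was 3.08 ± 0.11 (adjusted p = 2.46e-08) for oAb and 3.05 ± 0.11 (adjusted p = 2.94e-08) for fAb. Of its 50-base words, 21.0% also lie in other genes. Sod1, the cytosolic copper-zinc enzyme, moved the other way: it had 200, 208, 170 and 182 CPM in oAb cells, 157, 155, 161 and 168 CPM in fAb cells, and 219, 281, 519 and 293 CPM in scramble cells. The 519 CPM is library 3, but the other controls were also above every treated library. The log2 fold change was -0.78 ± 0.24 (adjusted p = 0.0200) for oAb and -0.998 ± 0.24 (adjusted p = 0.00603) for fAb, and -0.48 (adjusted p = 0.00271) and -0.68 (adjusted p = 0.000156) without library 3. With the library set as a term the fAb value was -0.40 (adjusted p = 0.344), and the oAb call was lost without oAb library 3 (adjusted p = 0.0585), without oAb library 4 (adjusted p = 0.0542), within the Timm23 set (adjusted p = 0.0851) and with the replicate number as a block (adjusted p = 0.0605). TPM of Sod2 over TPM of Sod1 was 1.62 to 1.90 in oAb cells, 1.95 to 2.03 in fAb cells and 0.0808 to 0.159 in scramble cells, so that the order of these transcripts turned round. Cat, which encodes catalase, had a log2 fold change of 0.06 (adjusted p = 0.585) for oAb and 0.21 (adjusted p = 0.0513) for fAb. The fAb value was past the threshold without scramble library 3, at 0.17 (adjusted p = 0.0171), in DESeq2 (adjusted p = 0.00794), with its size factors (adjusted p = 0.0415), in limma voom (adjusted p = 0.0456), with all 12 libraries in 1 fit (adjusted p = 0.044) and within the Gm10273 set (adjusted p = 0.0232).

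**Figure D3:**
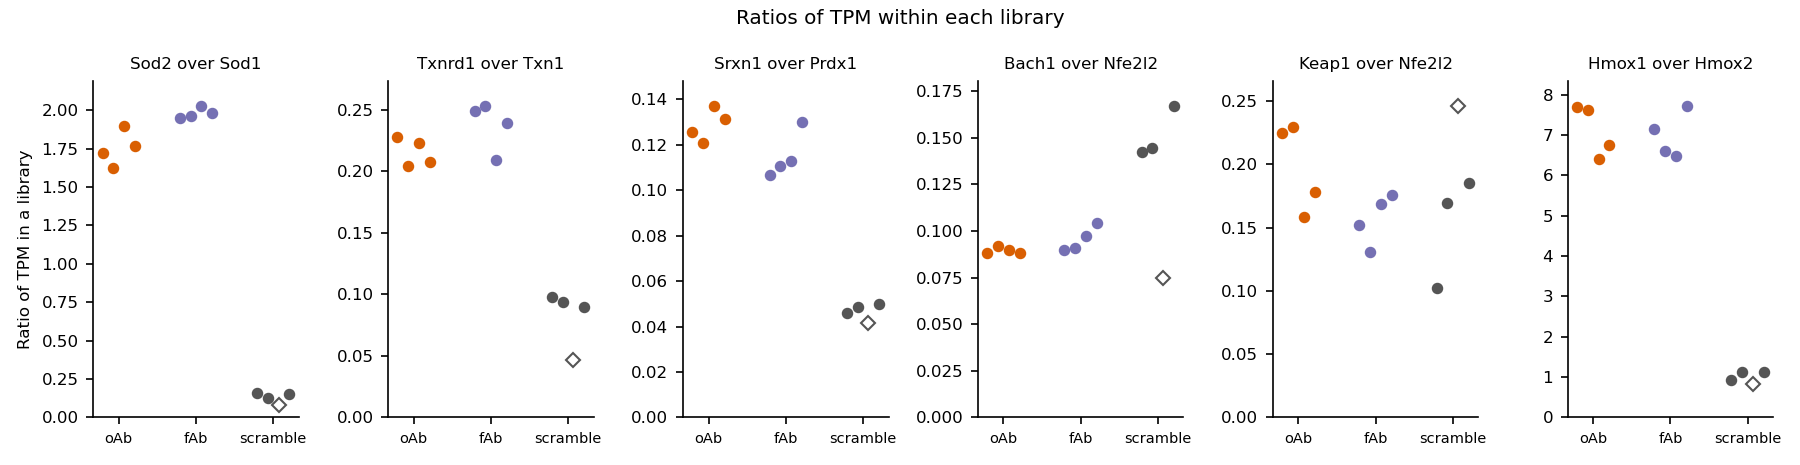
Ratios of TPM between pairs of genes within each library (vertical axes, from 0), 1 point per library, in oAb, fAb and scramble cells, with scramble library 3 as an open diamond. Sod2 over Sod1, Txnrd1 over Txn1, Srxn1 over Prdx1 and Hmox1 over Hmox2 are higher in every treated library, while Keap1 over Nfe2l2 overlaps and the other 3 controls are above all treated libraries for Bach1 over Nfe2l2.

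The preparations were compared with each other directly in the 4 fAb and 4 oAb libraries, since both differ from scramble. None of the 10 genes passed, and none of 10878 tested genes did (0.0%) in edgeR, with 1391 genes (12.8%) at an unadjusted p under 0.05, 14 past the adjusted threshold in DESeq2 and 0 in limma voom. For Hmox1 the log2 difference of fAb over oAb was -0.07, with a 95% interval of -0.21 to 0.06, and for Sod2 it was -0.06 (-0.18 to 0.06). Srxn1 differed by 0.02 (-0.14 to 0.19) and Txnrd1 by 0.08 (-0.03 to 0.20), so differences within these intervals remain possible. Prdx1 was the member with the smallest p: its fAb libraries, at 2124 to 2321 CPM, did not overlap the oAb libraries, at 1824 to 2030 CPM, and the difference was 0.19 (0.06 to 0.32), with an unadjusted p of 0.00742 and an adjusted p of 0.375 in edgeR. Of all tested genes, 3.05% were higher in fAb without overlap. Keap1 had 52.5 ± 6.18 CPM in fAb cells and 66.3 ± 10.4 CPM in oAb cells (SD, n = 4 each), a difference of -0.34 (-0.61 to -0.07; edgeR adjusted p = 0.375) between groups that overlap, and the oAb libraries that stand highest are those of the Timm23 set, which holds no fAb library. With the library set as a term the difference was -0.13 (edgeR adjusted p = 0.534), and within the Gm10273 set it was -0.12 (adjusted p = 0.615). Both values rest on oAb libraries 3 and 4, the oAb libraries of the Gm10273 set, so they are not separate results.

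Levels between genes were compared in TPM, which is per length. In scramble cells the order was Txn1 at 1044 ± 110 TPM (SD, n = 4), Prdx1 at 772 TPM, Nfe2l2 at 183 TPM, Hmox1 at 95.5 TPM and Txnrd1 at 83.6 TPM, of which the last 2 overlap. Srxn1, Keap1, Sod2 and Bach1 followed between 35.8 and 24.96 TPM, each overlapping the next, and Nqo1 was last at 1.02 TPM. In oAb cells Prdx1 led at 1686 TPM, followed by Txn1 at 1224 TPM, Hmox1 at 894 TPM, Txnrd1 at 263 TPM, Sod2 at 222 TPM and Srxn1 at 217 TPM, which overlap, and Nfe2l2 at 191 TPM. The order in fAb cells was the same apart from Sod2 and Srxn1, which overlap there too, with Prdx1 at 2046 ± 174 TPM. Prdx1 was thus above Txn1 in treated cells and below it in scramble cells, and Hmox1, Txnrd1, Srxn1 and Sod2 were all above Nfe2l2 in treated cells and below it in scramble cells. The 10 genes summed to 4754 ± 55.0 TPM in oAb cells, 5199 ± 187 TPM in fAb cells and 2300 ± 97.1 TPM in scramble cells (SD, n = 4 each). Ratios of treated over scramble means were 1.05 to 1.18 times larger in normalised CPM than in TPM over these genes, and on the TPM scale Nfe2l2 overlapped between groups, at 187 to 194 TPM in oAb cells, 189 to 213 TPM in fAb cells and 136 to 211 TPM in scramble cells.

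**Figure D4:**
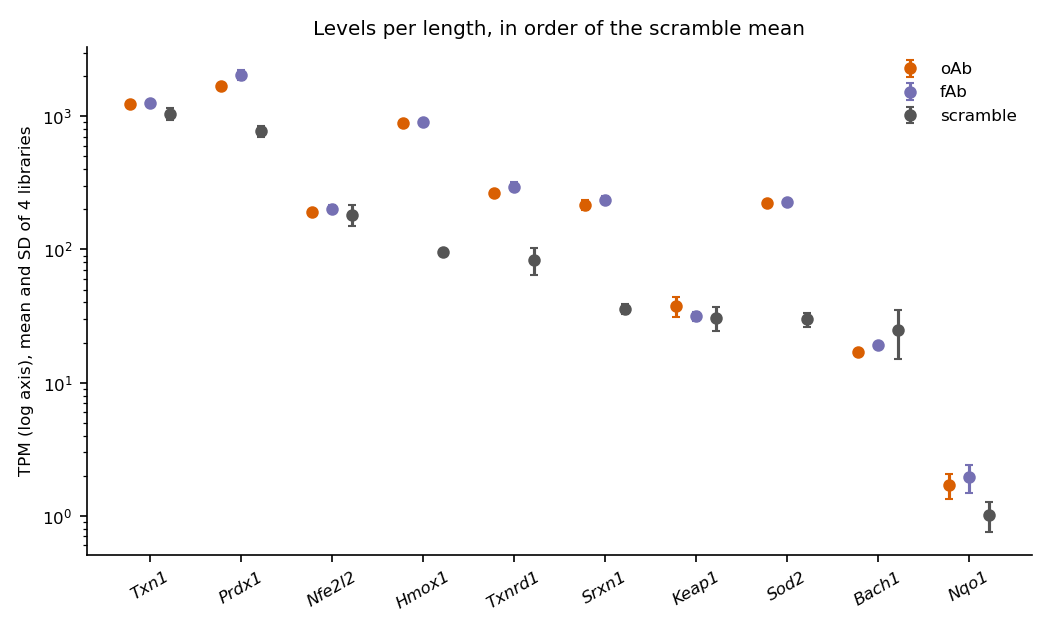
Mean TPM (log axis) with the SD of 4 libraries for the 10 genes in oAb, fAb and scramble cells, ordered by the scramble mean. Prdx1 and Txn1 are the most abundant in every group, Nqo1 is the least abundant at 1 to 2 TPM, and Hmox1, Txnrd1, Srxn1 and Sod2 cross above Nfe2l2 in treated cells.

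The other genes of these pathways were read from lists of genes by role, without the 10 members. As background for the counts, 25.2% of all tested genes were higher and 27.0% lower for oAb. For fAb these shares were 27.6% and 28.8%. Of 11 other tested regulators of NRF2, 6 rose and 1 fell for oAb, and likewise for fAb, with median log2 fold changes of 0.47 for oAb and 0.48 for fAb. The small MAF genes, whose proteins pair with NRF2 or BACH1, all rose on the log2 scale: Mafg by 0.78 for oAb and 0.77 for fAb, Mafk by 0.98 for oAb and 0.82 for fAb, and Maff by 3.58 for oAb and 3.52 for fAb. Maff stayed rare, at 7.64 ± 1.03 CPM in oAb cells, 7.15 ± 0.48 CPM in fAb cells and 0.64 ± 0.19 CPM in scramble cells (SD, n = 4 each). Sqstm1, whose protein p62 binds KEAP1, rose by 1.52 for oAb and 1.33 for fAb, though Mrnip covers 17.3% of its exons on the other strand. Nfe2l1, a relative of Nfe2l2, rose by 1.09 in both, and Cul3, the scaffold of the ligase, by 0.47 for oAb and 0.48 for fAb. Btrc, an adaptor of another ligase that acts on NRF2, fell, with changes of -0.39 for oAb and -0.34 for fAb. Each of these calls has an edgeR adjusted p under 0.05 over all genes. Those of Cul3 and Btrc are the least stable: with the library set as a term Cul3 had 0.32 (adjusted p = 0.246) and Btrc -0.30 (adjusted p = 0.24) for fAb, within the Timm23 set Cul3 had 0.45 (adjusted p = 0.116) and Btrc -0.43 (adjusted p = 0.0686) for oAb, and the fAb call of Btrc was lost without fAb library 2 (adjusted p = 0.0753), fAb library 4 (adjusted p = 0.0846) or scramble library 4 (adjusted p = 0.0615). Bach2, with 27 counts over the 12 libraries, was not tested.

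Heme and iron genes moved in both directions. Of 9 tested besides Hmox1, 4 rose and 3 fell for either preparation. Among all tested genes 25.2% were higher and 27.0% lower for oAb, and 27.6% and 28.8% for fAb. Alas1, the first enzyme of heme synthesis, had 227, 233, 229 and 239 CPM in oAb cells, 225, 219, 236 and 245 CPM in fAb cells, and 34.7, 37.01, 48.2 and 38.9 CPM in scramble cells. No library overlapped, and its log2 fold change was 2.55 ± 0.11 (adjusted p = 1.25e-07) for oAb and 2.58 ± 0.12 (adjusted p = 1.90e-07) for fAb. Fech, the last enzyme of heme synthesis, which was chosen after its values were seen, fell, with changes of -0.42 (adjusted p = 0.00250) for oAb and -0.41 (adjusted p = 0.00207) for fAb. Slc48a1, a heme transporter of lysosomes, rose by 0.97 for oAb and 1.01 for fAb, and Slc46a1, a folate transporter that also carries heme, fell, with changes of -0.86 for oAb and -1.01 for fAb. The call of Slc46a1 was lost within the Timm23 set for oAb (adjusted p = 0.0555) and with the library set as a term for fAb (adjusted p = 0.167).

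In the rest of the thioredoxin and peroxiredoxin list, 3 of 20 tested genes rose and 6 fell for oAb and likewise for fAb. All tested genes had 25.2% higher and 27.0% lower for oAb, and 27.6% and 28.8% for fAb. The list median was -0.04 and -0.03, so the rises of Srxn1, Txnrd1 and Prdx1 were not shared by most of the list. Without scramble library 3, 20 of the 24 genes of the whole list passed for fAb, against 12 with it, while 68.0% of all 11169 tested genes passed, against 56.3%. Glrx, which encodes glutaredoxin, rose by 2.79 for oAb and 2.82 for fAb, and Prdx5, a peroxiredoxin of mitochondria and other compartments, by 1.59 for oAb and 1.505 for fAb, though exons of Trmt112 cover 19.1% of those of Prdx5 on the other strand. Of the mitochondrial forms, Txnrd2, the reductase, fell, with changes of -0.51 for oAb and -0.45 for fAb. Its fAb call was lost without fAb library 3 (adjusted p = 0.0532) and with the library set as a term (adjusted p = 0.292), and its oAb call within the Timm23 set (adjusted p = 0.0804). Txn2, the thioredoxin, had changes of 0.04 (adjusted p = 0.83) for oAb and 0.00 (adjusted p = 0.999) for fAb, and of 0.22 (adjusted p = 0.0102) and 0.19 (adjusted p = 0.0427) without scramble library 3. Sesn1, a sestrin, which restrains growth signalling under stress, had 9.34, 8.01, 8.86 and 8.71 CPM in oAb cells, 11.5, 11.2, 10.0 and 9.25 CPM in fAb cells, and 141, 134, 114 and 119 CPM in scramble cells. It fell, with no overlap between treated cells and controls, and its log2 fold change was -3.86 for oAb and -3.56 for fAb. Txnip, whose protein binds and inhibits thioredoxin, fell too, with changes of -0.95 for oAb and -0.60 for fAb, though Gm15441 covers 19.4% of its exons on the other strand.

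Among the other superoxide and peroxide genes, 4 of 11 rose and 4 fell for either preparation. Beside this, 25.2% of all tested genes were higher and 27.0% lower for oAb, and 27.6% and 28.8% for fAb. Cybb, the catalytic subunit of the phagocyte NADPH oxidase, rose by 2.26 for oAb and 2.36 for fAb, and Rac2, a GTPase that activates it, by 0.92 for oAb and 0.86 for fAb. Gpx4, which reduces lipid peroxides, fell, with changes of -0.80 for oAb and -0.99 for fAb, and 34.7% of its 50-base words lie in other genes. Its scramble library 3 had 333 CPM, against 148 to 198 CPM in the other controls, and without that library the changes were -0.51 for oAb and -0.69 for fAb. With the library set as a term the fAb value was -0.44 (adjusted p = 0.291).

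The quinone and conjugation genes counted as part of the NRF2 programme moved in both directions. Besides Nqo1, 3 of 15 tested genes rose and 5 fell for either preparation, shares not far from those of all tested genes given above, with medians of -0.29 for oAb and -0.26 for fAb. Esd, S-formylglutathione hydrolase, rose by 1.55 for oAb and 1.62 for fAb and Abcc1, an exporter of glutathione conjugates, by 1.49 for oAb and 1.56 for fAb, while Ephx1, the microsomal epoxide hydrolase, fell, with changes of -1.94 for oAb and -1.89 for fAb. Of the list of glutathione genes, which holds genes for making, recycling and degrading it, 7 of 8 tested rose and none fell for either preparation, with medians of 1.44 and 1.47. Slc7a11, the cystine importer, rose by 5.98 for oAb and 6.10 for fAb, Chac1, which degrades glutathione, by 5.29 for oAb and 5.17 for fAb, and Gsr, which restores reduced glutathione, by 2.10 for oAb and 2.26 for fAb. The subunits of glutamate-cysteine ligase differed, as Gclm rose by 1.46 for oAb and 1.61 for fAb, while Gclc, the catalytic one, had changes of -0.16 (adjusted p = 0.508) for oAb and 0.12 (adjusted p = 0.637) for fAb, the first being -0.32 (adjusted p = 0.0299) without scramble library 3. Of 9 NADPH supply genes, 4 rose and 3 fell for oAb, and 4 rose and 2 fell for fAb. The shares of all tested genes were 25.2% higher and 27.0% lower for oAb, and 27.6% and 28.8% for fAb. Me1, malic enzyme, rose by 1.495 for oAb and 1.65 for fAb, Nadk, NAD kinase, by 1.42 for oAb and 1.37 for fAb, and Pgls, of the pentose phosphate pathway, fell, with changes of -1.05 for oAb and -1.55 for fAb. Its oAb groups overlap, 20.6% of its exons are shared with Fam129c, and its oAb call was lost when oAb library 1, 3 or 4 or scramble library 2, 3 or 4 was left out (adjusted p = 0.0524 to 0.113).

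**Figure D5:**
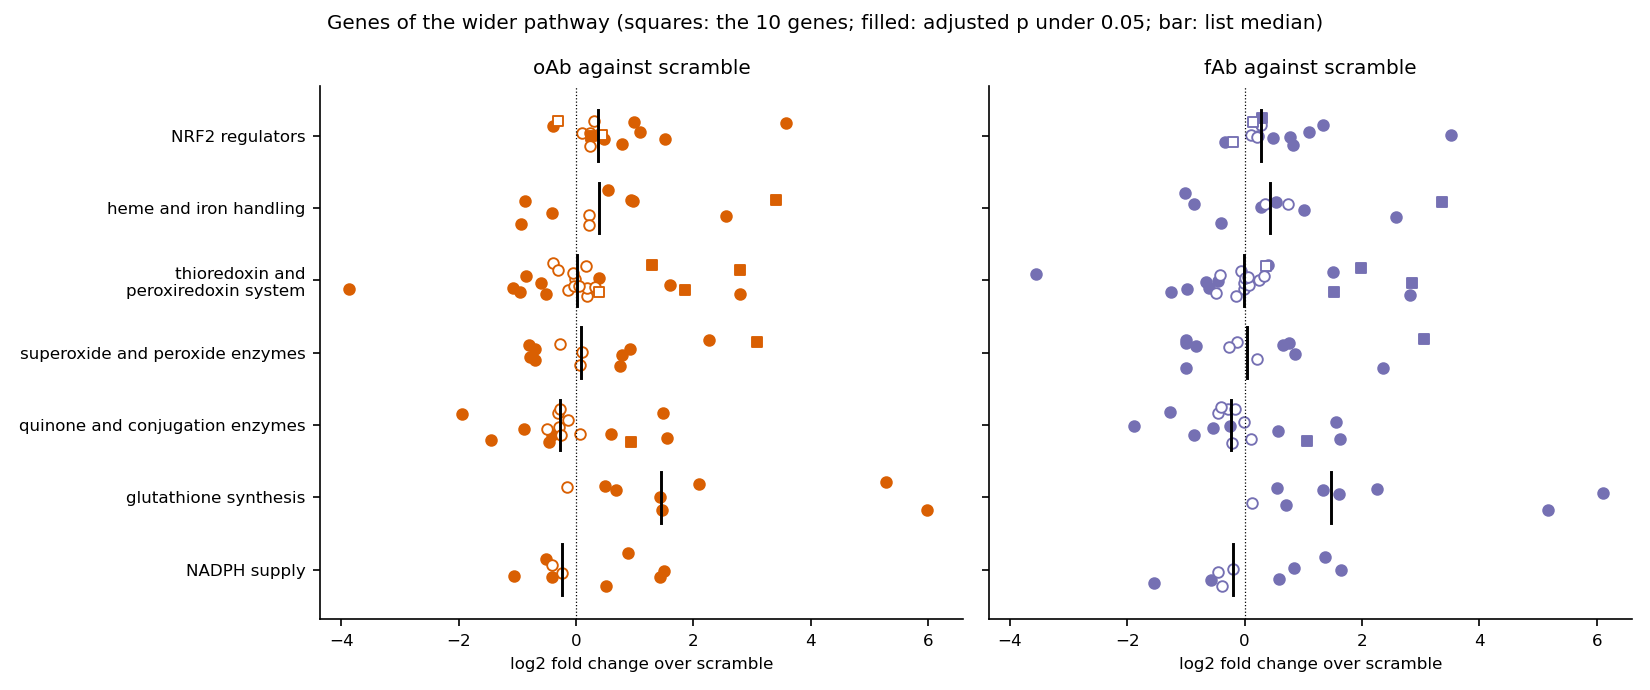
Log2 fold changes of the tested genes of each list for oAb against scramble and fAb against scramble, with the 10 members and the other genes marked apart. The glutathione list lies mostly above 0, with a median of 1.44 and 1.47, whereas the thioredoxin list is centred near 0.

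Likeness of pattern was measured for Hmox1, Srxn1 and Sod2 as the root mean square difference of log2 CPM (prior count 2), each gene centred on its own mean over the 12 libraries, among 9777 genes. Nearest to Hmox1 were Ass1, argininosuccinate synthase, at 0.0694, Epsti1 at 0.0881 and Fcgr1, the high-affinity Fc gamma receptor, at 0.104. Nearest to Srxn1 were Glrx at 0.0854, Igsf6 at 0.0920 and Adhfe1 at 0.0977. Nearest to Sod2 were Ets2, a transcription factor, at 0.0932, Mlkl, the executor of necroptosis, at 0.0965, and Lgals3bp at 0.104. Since treated and control cells differ widely for all of these, the measure mainly finds genes with a fold change of the same size, and 38.6% of the 50-base words of Ass1 lie in another gene.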

How the data were processed

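The 12 IMG samples gave spin-column RNA that went into a stranded mRNA kit, per the labels' protocols. Trimming of reads is recorded per the file headers, and mm10 is the build in the submitters' processing notes. Aligner, counter and use of strand were not given in the sources used here. Per the file headers, the authors deposited whole-number counts per gene, RPKM and TPM. The deposited columns named CPM are a signal on a library size normalised by the authors and were not used, nor was RPKM. The authors' deposited fold changes and p-values come from a test that was not named there.

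Counts were tested in edgeR 4.0.16 (R 4.3.3) on the 8 libraries of each comparison: filterByExpr with a minimum count of 10, TMM scaling, the robust quasi-likelihood F test, two-sided, and Benjamini-Hochberg adjustment over all tested genes at 0.05. Levels were given as normalised CPM and, between genes, as deposited TPM. DESeq2 1.42.0 and limma 3.58.1 (voom) were among the alternatives, as were other scalings and filters, all 12 libraries in 1 fit, the replicate number as a block, leaving out each library, and the library set. The fit was tested on simulated data. The division by set, and fits within a set, were chosen after the data were seen. The members and lists were chosen with earlier results of these data known.

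The genes named are the 10 members, 13 partners and relatives of them, the 3 further genes of each list with the largest mean absolute change past 0.05 in both comparisons and a mean of at least 2 CPM, and the 3 genes most like Hmox1, Srxn1 and Sod2. Timm23 and Gm10273 were added for how they divide the libraries, and Fech was added after its values were seen. Of the 52 named by rule, 4 (Ass1, Gpx4, Me1 and Sod2) have 20% or more of their 50-base words in common with other genes. Exons are overlapped on the same strand in 4 and on the other strand in 14. The counts of all these genes are uncertain.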

Additional observations from a re-analysis of the deposited data

Results flagged for a closer look

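Among 30 groups of 4 libraries (the 10 genes in 3 groups), 3 held a library far from the other 3 by Dixon's test at 95%, where chance flags about 1 in 20 groups. Scramble library 3 stood apart for Txn1, at 522 CPM against 315 to 332 CPM in the other controls. The same library stood apart for Txnrd1, at 163 CPM against 200 to 208 CPM. For Txnrd1 in fAb cells, library 3 had 691 CPM against 755 to 764 CPM in the other 3. Scramble library 3 also held the highest share of ribosomal protein counts, and its part in these values was not tested. Txnrd1 passed against scramble in every alternative run for it, with and without these libraries, while Txn1 did not pass in the fit reported but passed without scramble library 3 and in a few alternatives that keep it.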

How the results depend on the processing

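Hmox1, Srxn1, Txnrd1, Prdx1 and Sod2 passed the threshold, in the same direction, in 185 of 185 alternatives of oAb and fAb against scramble. Members called numbered 5 to 10 for oAb and 7 to 9 for fAb when each library was left out in turn, and 0 for fAb against oAb. Genes called numbered 4962 to 7174 for oAb, 5517 to 7598 for fAb and 0 for fAb against oAb in the same runs. The highest member counts, 10 for oAb and 9 for fAb, came without scramble library 3. There 64.4% of 11148 tested genes passed for oAb and 68.0% of 11169 for fAb, against 52.2% and 56.3% with all libraries. The count of genes called fell to 3792 (33.8% of 11224 tested) for oAb within the Timm23 set. It fell to 3844 for fAb with the library set as a term. The cause of these falls was not tested. DESeq2 called 14 for fAb against oAb. With upper quartile scaling 2127 genes were called higher and 4015 lower for oAb, against 2777 and 2984 with TMM, and 2273 and 4361 for fAb, against 3051 and 3184. Within the Gm10273 set, with 1 control, all 10 members passed in both comparisons with scramble, 9 of them higher and Bach1 lower, beside 64.1% of all tested genes for oAb and 56.3% for fAb in those fits. No fAb library is in the Timm23 set, so fAb gives no value there, and Nqo1 is left out by a minimum mean of 2 CPM.

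None of the 35 values that changed sign had an adjusted p under 0.05, and the cause was not tested. Those of Gclc for fAb against scramble reached -0.282, from 0.12 in the fit reported. For fAb against oAb, Nfe2l2 was 0.000121 in DESeq2, 8.69e-06 with its size factors, 0.00703 with no filter, 0.0148 with upper quartile scaling and -0.00772 to 0.0115 with a library left out. With the library set as a term Nqo1 was -0.0251 and Srxn1 -0.0847, within the Gm10273 set they were -0.0167 and -0.0756, and Srxn1 was -0.0184 to 0.0813 with a library left out. For fAb against scramble, Txn2 was -0.0347 with all 12 libraries, -0.0283 at a mean of at least 2 CPM, -0.188 with upper quartile scaling and -0.0883 to 0.185 with a library left out. Gclc was -0.282 with the set as a term, -0.0717 with upper quartile scaling, -0.272 within the Gm10273 set and -0.0349 to 0.268 with a library left out, and Keap1 was -0.0462 with upper quartile scaling and -0.0516 to 0.31 with a library left out. For oAb against scramble, upper quartile scaling gave Cat -0.11 and Txn2 -0.13. Txn2 was -0.0633 and Gclc 0.0909 within the Timm23 set, and with a library left out they were -0.0294 to 0.22 and -0.315 to 0.0124.

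Deviations of same-numbered libraries from their group means correlated at -0.25 to 0.08 for oAb and scramble. The values were 0.09 to 0.20 for fAb and scramble and -0.23 to 0.24 for fAb and oAb. Not every library correlated best with its own number. With 4 libraries a group and 1 control that stands apart, these values cannot decide whether the replicate numbers pair the libraries. With the replicate number as a block, 5081 of 11033 tested genes and 5 members were called for oAb. For fAb 6292 of 11074 genes and 8 members were called, and for fAb against oAb 0 and 0. Depth limits Nqo1 most, at 7 to 21 counts per library. The 4 libraries a group, the 1 control that stands apart and the set division limit what small changes such as that of Nfe2l2 can show.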

Other observations

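Of the listed genes, 11 had too few counts to be tested. Sod3, Gpx7 and Aldh3a1 had no count in any of the 12 libraries, and Gpx8, Gsta4 and Ggt5 had 2, 1 and 1 counts over all libraries. Cbr3, a carbonyl reductase counted among the NRF2 targets, had 20 counts over the 4 oAb libraries, 25 over the fAb libraries and 19 over the scramble libraries. Bach2, a relative of Bach1, had 3 counts in oAb cells, 3 in fAb cells and 21 in scramble cells, of which 13 lay in scramble library 1.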
